A study of Mus musculus with 10 samples.

Results

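The genes described here encode subunits of cytoplasmic dynein and of dynactin, 10 of the 55471 genes in the tables: the LC8 light chain genes Dynll1 and Dynll2, the roadblock light chain gene Dynlrb1, the Tctex light chain gene Dynlt3, the heavy chain gene Dync1h1, the intermediate chain gene Dync1i2, the light intermediate chain genes Dync1li1 and Dync1li2, and the dynactin genes Dctn1 and Dctn2. They were taken by GENCODE M21 symbol, all 10 were found, and all 10 passed the filter on low counts in a test of 19263 genes. Dynll1 had been picked because it was lower in the knockdown-labelled libraries once background reads were modelled, and the list was drawn up with results of the same comparison in view. The differences between groups are therefore given for all 10 genes as descriptions, without p-values.

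Cytoplasmic dynein is the motor that carries cargo along microtubules toward their minus ends, and dynactin is the multi-subunit complex that ties it to cargo and keeps it on its track. A dynein heavy chain holds the motor, intermediate and light intermediate chains hold the tail together and reach the cargo, and small light chains of the LC8, roadblock and Tctex families dock on the intermediate chain. In microglia, the resident macrophages of the brain, this motor moves endosomes, lysosomes and phagosomes toward the cell centre.

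The cells were primary microglia of wild-type genotype, kept at 37 °C in DMEM with 10% fetal bovine serum and antibiotics. 5 libraries came from cells given control gapmers and 5 from cells given gapmers against the long noncoding RNA 3222401L13Rik. A gapmer is a short antisense oligonucleotide that leads RNase H to cut the RNA it binds. The sources used here do not give mouse strain, age, gapmer sequence, dose or time, nor do they say that replicates were separate cultures or separate animals, so errors and p-values measure the spread between these libraries, which may be technical.

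Gene totals ran from 4321316 to 5639040 reads among the control libraries and from 5593627 to 6636082 among those labelled knockdown. Replicates 1 to 3 of both groups were read in lane 7 and replicates 4 and 5 in lane 8. The targeted RNA did not separate the labels. 3222401L13Rik had 28 to 34 reads per control library and 22 to 38 per knockdown-labelled library, and its log2 fold change was -0.17 (SE 0.23), not past the threshold in edgeR's quasi-likelihood test (adjusted p = 0.541, Benjamini-Hochberg). Directions are therefore those of the label, not of a measured knockdown. Reads on olfactory receptor genes, which microglia do not use, did separate the labels. Their density, in reads per 1000000 reads and per kilobase of exon, was 0.599 ± 0.147 (SD, n = 5) under the control label and 0.257 ± 0.0674 (SD, n = 5) under the knockdown label. An exact permutation test, two-sided, gave p = 0.00794, the lowest value 5 against 5 libraries can reach, and the groups did not overlap. This difference was known from earlier results of these data, so the p-value describes it and is no fresh test. The ratio was 2.33 over all libraries, 2.65 within lane 7 and 1.93 within lane 8. The density of these reads is called the background density, and the part of a gene's reads that it predicts from exon length is called its background share. That of 3222401L13Rik was 48.0%, so whether its RNA was lowered can barely be judged from these counts. All 11 microglia markers examined had reads in every library, with C1qa and Csf1r at control means of 524 and 586 counts per 1000000 reads (CPM), but Tmem119 and P2ry12, which mark microglia in the intact brain, were at 2.84 and 11.4 CPM. Markers of other cells were present as well, given as summed CPM, lowest to highest library. 6 astrocyte genes ran from 138 to 156 in control and from 138 to 169 in knockdown-labelled libraries, 6 oligodendrocyte lineage genes from 56.5 to 63.4 and from 47.1 to 61.3, and 7 endothelial and fibroblast genes from 148 to 171 and from 143 to 157. These 3 lists overlapped between groups. Those of neurons (5 genes, 31.3 to 49.0 against 15.02 to 26.1), ciliated cells (6 genes, 37.3 to 61.1 against 24.6 to 36.4) and border macrophages, monocytes and neutrophils (6 genes, 540.3 to 662 against 677 to 795, nearly all Mrc1) did not overlap, the last being higher under the knockdown label and the others lower. The 11 microglia markers were likewise higher, at 3154 to 3787 against 3827 to 4415. Of these 9 had a background share under 5%, with a median log2 fold change of 0.27 when scaled over all tested genes. Scaled only on genes under that share, with expected background reads subtracted, their median was 0.00027 and none passed the edgeR test. Mrc1 was at 0.31 and 0.04 on these scales. The part of these lists in the results was not tested. In bulk RNA, fewer cells of a type and less RNA per cell cannot be told apart.

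Dynll1 and Dynll2 encode nearly interchangeable LC8 proteins, so the coding sequences are shown to let their counts be judged. The sequences are the GENCODE M21 coding parts without the stop codon, 5′ to 3′, and capitals mark the bases that differ between the paralogs.
Dynll1: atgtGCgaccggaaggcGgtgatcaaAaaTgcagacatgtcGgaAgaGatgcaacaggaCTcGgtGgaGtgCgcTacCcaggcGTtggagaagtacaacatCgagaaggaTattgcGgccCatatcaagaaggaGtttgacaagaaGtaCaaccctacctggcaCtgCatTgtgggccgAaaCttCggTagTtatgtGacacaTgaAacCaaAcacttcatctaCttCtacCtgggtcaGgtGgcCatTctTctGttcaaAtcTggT
Dynll2: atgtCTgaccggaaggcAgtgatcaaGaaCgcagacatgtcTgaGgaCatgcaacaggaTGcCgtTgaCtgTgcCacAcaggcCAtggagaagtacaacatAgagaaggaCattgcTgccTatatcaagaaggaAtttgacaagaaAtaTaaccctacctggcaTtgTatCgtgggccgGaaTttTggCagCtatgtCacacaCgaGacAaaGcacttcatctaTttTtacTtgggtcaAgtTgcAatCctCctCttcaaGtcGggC
Both coding parts were 267 bases long and 81.3% identical, with 50 differences, 45 of them at the last base of a codon. They made up 6.86% of the exon bases of Dynll1 and 9.76% of those of Dynll2. The longest identical stretch was 16 bases. No 50-base stretch of a Dynll2, Dynlrb1, Dynlt3, Dync1i2 or Dctn2 coding transcript occurred in a transcript of another gene. For Dynll1 3.13% of such stretches did, for Dctn1 0.385% and for Dync1li1 0.588%. Those of Dynll1 lay in many other genes on both strands, 347 when a gene is counted once for each strand. Those of Dctn1 and Dync1li1 lay in 1 and 3 other genes. Dync1h1 and Dync1li2 shared 2.47% and 7.26% with predicted or noncoding genes on the opposite strand, Gm35558 and K230015D01Rik, which held 108 and 41 reads over all libraries against 80251 and 7026 for the dynein genes. The 2 LC8 genes were thus separable in counting except for reads shorter than that stretch, and the sources used here do not give the read length.

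The level of each gene was set per length, as reads per 1000000 reads on genes and per kilobase of all its exons (RPKM). Dync1h1, the motor chain, stood highest in the control libraries at 89.2 ± 3.01 RPKM (SD, n = 5). The median tested gene was at 2.68 RPKM, below every member. Dynlrb1 (44.3 ± 3.26), Dynlt3 (40.4 ± 1.86) and Dync1i2 (39.6 ± 0.915) followed, and neighbours in that order overlapped in range. Dctn1, the p150Glued subunit that binds microtubules and the intermediate chain, was at 37.9 ± 0.543 RPKM, below all Dync1i2 values. Dync1li1 (28.8 ± 1.43) and Dctn2, the dynamitin subunit of the dynactin shoulder (26.5 ± 1.69), overlapped each other. Dynll2 (19.96 ± 1.18), Dynll1 (19.8 ± 2.95) and Dync1li2 (19.7 ± 1.02) shared the lowest place with overlapping ranges.

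**Figure D1:**
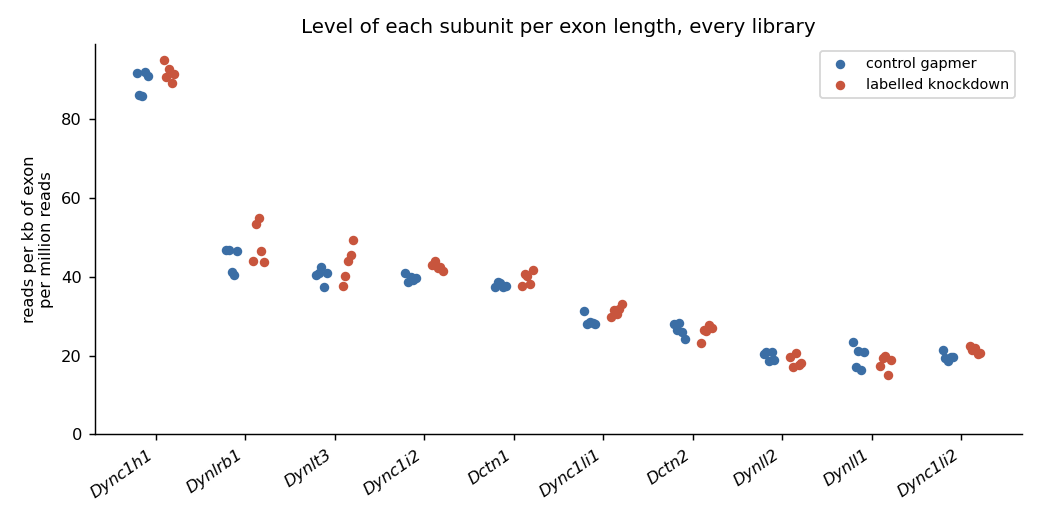
Reads per 1000000 reads and per kilobase of exon for each subunit in every library, ordered by control mean, with control libraries in blue and knockdown-labelled ones in red. Dync1h1 stands apart at 85.8 to 94.9 in all 10 libraries, and Dynll2, Dynll1 and Dync1li2 lie together at the low end.

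The order depended on the length used. Per base of the longest annotated transcript Dync1i2 moved from place 4 to place 2, Dynlrb1 from 2 to 4 and Dynll1 from 9 to 8, while Dync1h1 stayed first at 97.4 RPKM. Dynll1 has 3890 bases of exon over 6 annotated transcripts, but its longest transcript has 2242 bases, and its level rose to 34.3 RPKM on that length, above Dync1li2 (25.7) and Dynll2 (22.1).

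Between the groups the motor and tail chains were higher in the knockdown-labelled libraries on the usual scale, CPM scaled with TMM over all tested genes. Dync1h1 (ENSMUSG00000018707, chromosome 12, 110601452 to 110666945, plus strand, GRCm38) was at 1387, 1210.2, 1288, 1341 and 1433 CPM in control replicates 1 to 5 and at 1572, 1572, 1623, 1454 and 1574 CPM in knockdown-labelled replicates 1 to 5. Every knockdown-labelled library lay above every control library, and the log2 fold change was 0.23 (SE 0.06). Dync1i2 (ENSMUSG00000027012, chromosome 2, 71211706 to 71263303, plus strand), which carries the light chains and binds Dctn1, was at 329, 287, 316, 301 and 331 CPM in the control and at 377, 403, 391, 366 and 378 CPM in the knockdown-labelled libraries. Again the groups did not overlap, with a log2 fold change of 0.29 (SE 0.06).

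The light intermediate chains link the motor to cargo adaptors. Dync1li1 (ENSMUSG00000032435, chromosome 9, 114688790 to 114724302, plus strand) had 117, 97.0, 106, 102 and 109 CPM in the control and 122, 135, 132, 128 and 141 CPM in the knockdown-labelled libraries. Dync1li2 (ENSMUSG00000035770, chromosome 8, 104417680 to 104443047, minus strand) had 124, 104, 107, 110.2 and 119.7 CPM against 142, 143, 149, 128 and 137 CPM. Neither gene overlapped between groups, and their log2 fold changes were 0.31 (SE 0.06) and 0.30 (SE 0.06).

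Of the dynactin genes, Dctn1 (ENSMUSG00000031865, chromosome 6, 83165920 to 83200117, plus strand) was at 236, 225, 239, 227 and 246 CPM in the control and at 258, 294, 293, 259 and 299 CPM in the knockdown-labelled libraries, again without overlap, with a log2 fold change of 0.26 (SE 0.06). Dctn2 (ENSMUSG00000025410, chromosome 10, 127266368 to 127281950, plus strand) was at 130.2, 113, 129.6, 116 and 116 CPM against 118, 141, 140.4, 138 and 142 CPM. Its groups overlapped through knockdown-labelled replicate 1, which fell inside the control range, and its log2 fold change was 0.17 (SE 0.06).

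The light chains differed among themselves. Dynlrb1 (ENSMUSG00000047459, chromosome 2, 155236533 to 155250277, plus strand) was at 45.7, 42.4, 39.7, 38.0 and 47.1 CPM in the control and at 46.9, 59.8, 61.9, 48.8 and 48.4 CPM in the knockdown-labelled libraries, a log2 fold change of 0.32 (SE 0.08). Only knockdown-labelled replicate 1 fell inside the control range. Dynlt3 (ENSMUSG00000031176, chromosome X, 9654267 to 9663003, minus strand) was at 101, 94.8, 105, 89.8 and 106 CPM against 103, 115, 127, 122 and 139.8 CPM, a log2 fold change of 0.29 (SE 0.07), and again replicate 1 was the library that overlapped the control.

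The LC8 genes stayed nearer the control. Dynll2 (ENSMUSG00000020483, chromosome 11, 87979525 to 87987533, minus strand) was at 54.3, 51.5, 48.6, 53.5 and 52.0 CPM in the control and at 56.7, 51.9, 63.0, 50.2 and 54.7 CPM in the knockdown-labelled libraries, with overlapping groups. Its log2 fold change was 0.09 (SE 0.07), with a 95% interval of -0.06 to 0.24. Dynll1 (ENSMUSG00000009013, chromosome 5, 115297110 to 115300999, minus strand) was at 88.3, 60.1, 78.6, 59.4 and 81.6 CPM in the control and at 71.5, 83.0, 87.1, 60.7 and 81.1 CPM in the knockdown-labelled libraries. Every knockdown-labelled value lay inside the control range, and the log2 fold change was 0.06 (SE 0.13), its 95% interval running from -0.24 to 0.35. Within lane 7 the Dynll1 means were 75.7 CPM for control and 80.5 CPM for knockdown-labelled libraries, and within lane 8 they were 70.5 and 70.9 CPM. The other 8 genes had higher knockdown-labelled means in both lanes, whereas Dynll2 was at 51.5 against 57.2 CPM in lane 7 and at 52.7 against 52.5 CPM in lane 8.

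**Figure D2:**
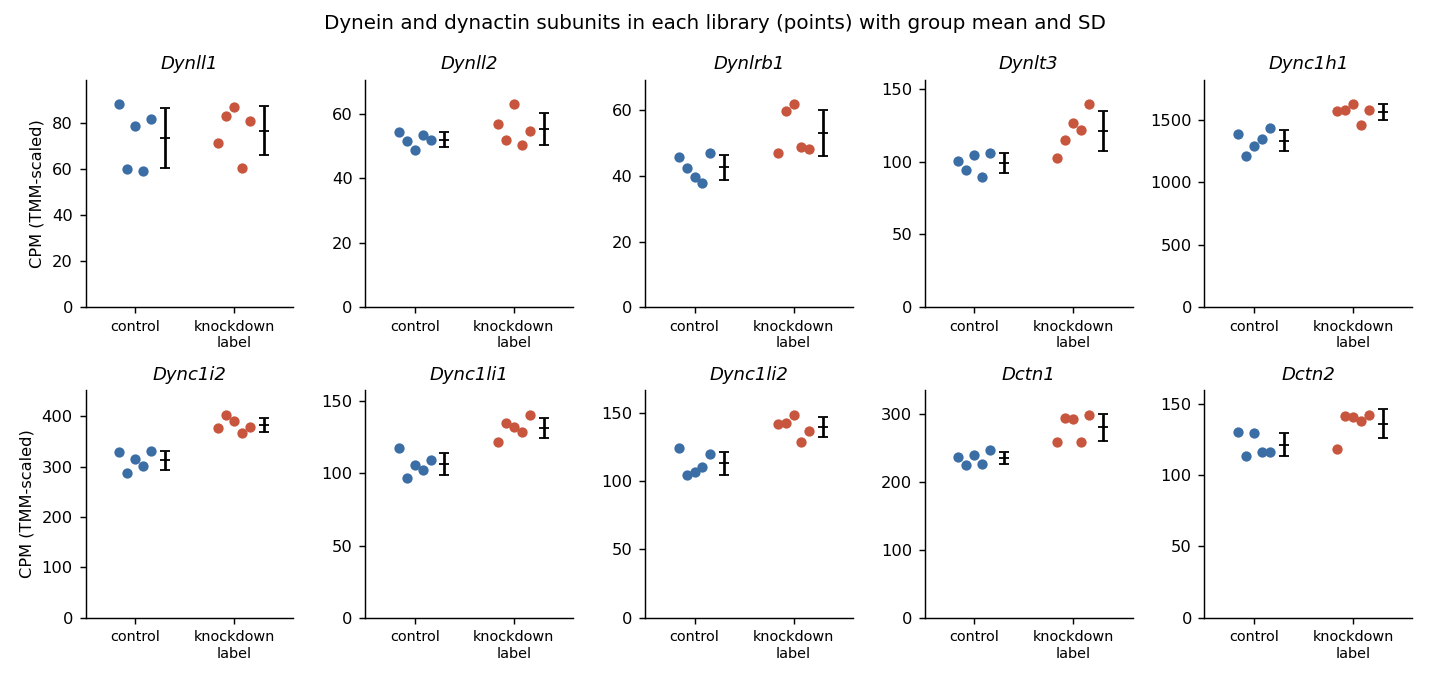
TMM-scaled CPM of the 10 genes in each library (points), with the group mean and SD beside them, on axes that start at 0. Dync1h1, Dync1i2, Dync1li1, Dync1li2 and Dctn1 do not overlap between groups, whereas Dynll1 and Dynll2 do.

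On this scale 8 of the 10 genes were called higher and 0 lower (edgeR, adjusted p under 0.05), where 22.9% of all tested genes were called higher and 31.3% lower. 5 of 10 did not overlap between groups, all with the knockdown-labelled libraries above, where 26.8% of tested genes did not overlap, 12.6% above and 14.2% below. These shares are not the fitting background for well expressed genes, because each member had a background share of only 0.446% (Dync1h1) to 2.13% (Dynll1). Of the 4728 tested genes with a share under 5%, 75.5% were called higher and 0.486% lower on the same scale (76% in all), and their median log2 fold change was 0.24, while that of all tested genes was -0.10. The members' median was 0.27. With library totals alone the median of all tested genes moved to -0.30, with 759 called higher and 7888 lower, and 1 member was called higher, and with upper-quartile scaling that median was -0.24, with 1685 higher and 7195 lower and 6 members called higher, Dync1h1 and Dctn2 no longer among them. The call on Dctn2 also ended with a stricter filter of 5 CPM in 5 libraries and within lane 7 alone. A count of 8 in 10 was thus close to that of other genes with little background, and because the choice of members had used this comparison nothing more is read from it.

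Scaled on those 4728 genes alone, with the expected background reads subtracted, the motor, tail and dynactin genes lay close to 0. Log2 fold changes were -0.04 for Dync1h1 (95% interval -0.09 to 0.01), 0.03 for Dync1i2 (-0.04 to 0.09), 0.05 for Dync1li1 (-0.04 to 0.15), 0.05 for Dync1li2 (-0.04 to 0.15) and -0.01 for Dctn1 (-0.08 to 0.06). Dynlrb1 was at 0.06 (-0.10 to 0.21), Dynlt3 at 0.03 (-0.08 to 0.14) and Dctn2 at -0.09 (-0.19 to 0.01). The 2 LC8 genes were the lowest of the 10, Dynll1 at -0.19 (-0.41 to 0.02) and Dynll2 at -0.16 (-0.30 to -0.02). Relative to these genes 5.10% of the 4728 lay lower than Dynll1 and 6.85% lower than Dynll2. None of the 10 was called in edgeR after adjustment, where 0.719% of these genes were called higher and 1.02% lower (1.73% in all). Without the subtraction again none was called, where 2.18% were higher and 1.88% lower (4.06% in all). With subtraction all 10 overlapped between groups, where 4.15% of these genes did not. Dynll1 was at 112, 84.7, 102, 78.6 and 99.4 CPM in control replicates 1 to 5 on this scale and at 80.5, 89.0, 92.03, 69.3 and 87.4 CPM in knockdown-labelled replicates 1 to 5. Controls 1, 3 and 5 stood above every knockdown-labelled library, while controls 2 and 4 lay among them. The sign for Dynll1, Dynll2, Dync1h1, Dctn1 and Dctn2 thus turned with the scaling, and for Dynll1, Dynll2 and Dctn2 it was also negative with library totals only (-0.15, -0.12 and -0.04).

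**Figure D3:**
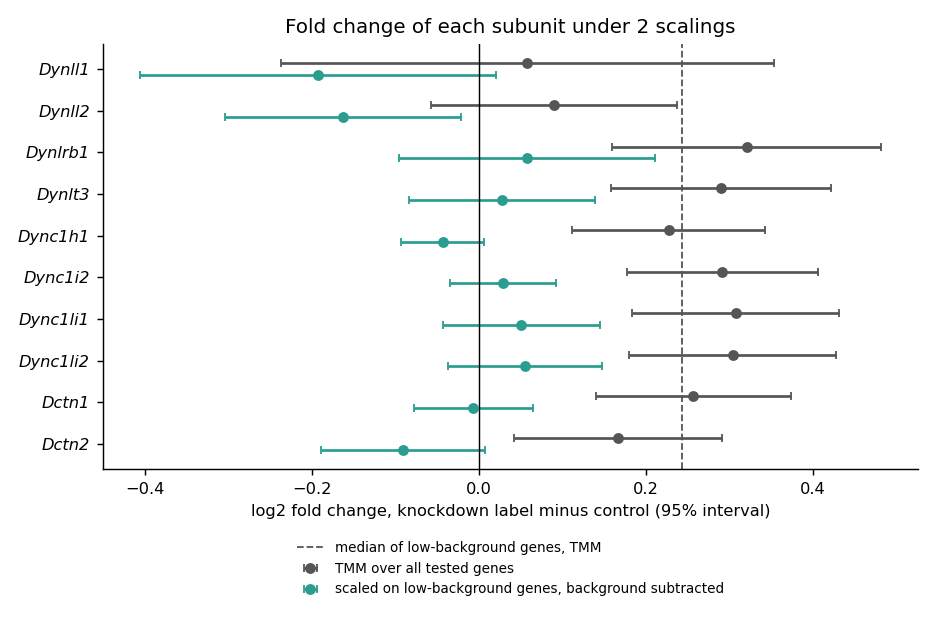
Log2 fold change of each subunit, knockdown-labelled minus control, with 95% intervals, in grey for TMM over all tested genes and in green for scaling on genes under a 5% background share with background subtracted. The dashed line is the TMM median of those low-background genes (0.24), near which 8 genes lie, while Dynll1 and Dynll2 lie to its left.

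Dynll1 had the widest control spread of the 10. On the low-background scale its coefficient of variation was 14.4% among control and 10.8% among knockdown-labelled libraries, where the 1594 genes within 1.5-fold of its level had medians of 6.48% and 5.65%. Dynll2 was at 6.93% and 7.65% and Dync1i2 at 1.53% and 2.45%, while Dynlrb1 (10.7%) and Dynlt3 (10.4%) came close to Dynll1 in the knockdown-labelled group. The libraries with low Dynll1 were those with high background density for their group. In the control, replicates 2 and 4 had 60.1 and 59.4 CPM at densities of 0.816 and 0.653, while replicates 1, 3 and 5 had 78.6 to 88.3 CPM at 0.425 to 0.580. In the knockdown-labelled group, replicates 4 and 1 had 60.7 and 71.5 CPM at densities of 0.343 and 0.313, while replicates 2, 3 and 5 had 81.1 to 87.1 CPM at 0.188 to 0.223. With 5 libraries a group no correlation was computed. The densities of the 2 groups did not overlap, so a control and a knockdown-labelled library with the same Dynll1 level had very different densities.

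**Figure D4:**
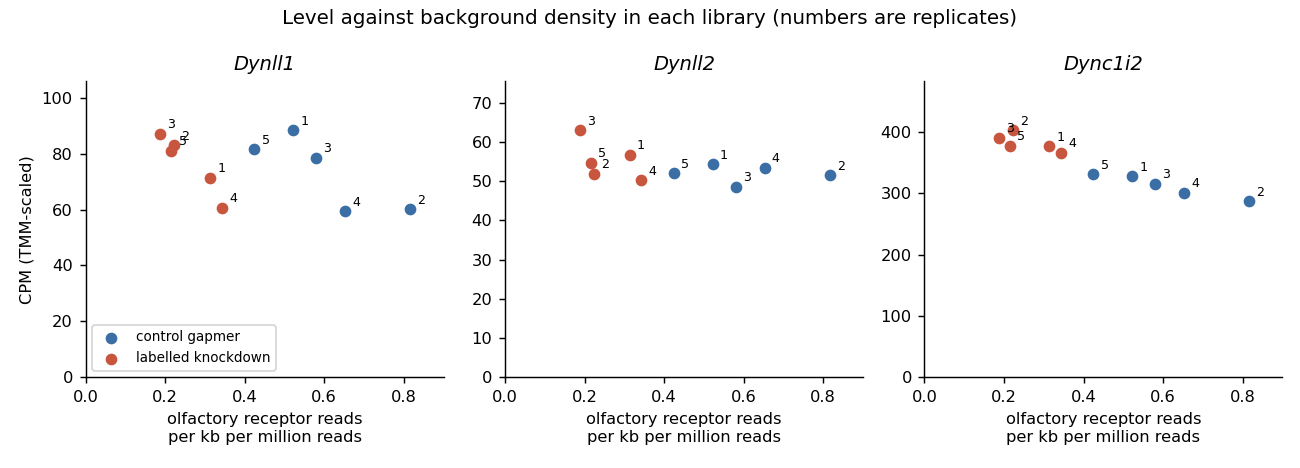
TMM-scaled CPM against background density for Dynll1, Dynll2 and Dync1i2, with 1 point per library and replicate numbers beside the points. For Dynll1 each group slopes down on its own and the 2 groups are offset, for Dync1i2 the 10 libraries fall along 1 downward course, and for Dynll2 no such course is seen.

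When the background density was entered in the model beside the group, the log2 change for each 0.1 step of density was -0.18 (SE 0.03) for Dynll1, and 2.86% of the 4728 low-background genes lay lower. It was -0.08 (SE 0.04) for Dynlrb1 and between -0.02 (SE 0.03, Dynll2) and -0.06 (SE 0.03, Dynlt3) for the other 8, while those 4728 genes had a median of -0.06. At equal density the group term for Dynll1 was -0.53 (SE 0.11), the value for which the gene had been picked. Among the 4728 low-background genes 2.81% had a lower group term. Dynll1 was the 1 member called in that fit, in which 0.0831% of tested genes were called lower and 0.0208% higher. Because the gene was picked for this value, its rank and call here follow from the choice and are no test. The group terms of the other 9 ran from 0.01 (SE 0.13) for Dynll2 to 0.10 (SE 0.09) for Dync1li1. With each library left out in turn the value ran from -0.77 to -0.42, and it was not called without control replicate 1 (-0.44) or without knockdown-labelled replicate 4 (-0.42). These refits use the same values for which the gene was picked and are given as a description. Since no control library had a density as low as any knockdown-labelled one, the term rests on the slopes within the groups, and density and group cannot be told apart further.

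Genes whose libraries moved like those of Dynll1 were sought among 4533 genes with a background share under 5% and at least 10 CPM, by Pearson's r of log2 CPM deviations from the group mean over the 10 libraries. The 5 highest were Nploc4 (0.98), a cofactor of the p97 segregase, Tmem189 (0.97), the cytochrome c oxidase subunit gene Cox5b (0.96), the kinase gene Taok2 (0.95) and Ddb1 (0.95), a subunit of CUL4 ubiquitin ligases. Among the members Dync1i2 came closest (0.88) and the paralog Dynll2 was the least like it (0.33). These values describe libraries that share depth and background differences, and no p is attached to them. They were taken on the TMM scale. No typical r over the 4533 genes was taken, so how particular a high r is cannot be told. On the low-background scale the 5 genes had log2 fold changes of -0.07 (Nploc4), 0.07 (Tmem189), -0.0023 (Cox5b), -0.04 (Taok2) and -0.02 (Ddb1), against -0.19 for Dynll1.

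The rest of the machinery was taken from lists chosen by gene function, 105 genes of which 99 were tested. 39 of them were called higher and 21 lower in the edgeR test over all genes with TMM, but 9 and 35 with library totals alone. The directions that follow are therefore those on the TMM scale. There 22.9% of all tested genes and 75.5% of the 4728 low-background genes were called higher. Whether any list differs from other genes of like background share was not tested. Of the 10 other dynactin genes 6 rose and 0 fell, and the median was 0.24 on the log2 scale, as for all values in brackets that follow. Capza2, which caps the barbed end of the dynactin filament, was at 358 ± 30.3 CPM under the control label and at 467 ± 23.8 CPM under the knockdown label (0.38, SE 0.06, SD over 5 libraries each, edgeR adjusted p = 1.2e-06). Dctn4 (0.33, SE 0.06) and the actin-related filament subunit gene Actr1a (0.29, SE 0.06) also rose. Of 6 dynein regulators 5 rose and 0 fell, with a median of 0.29. They included Pafah1b1, which encodes the dynein activator Lis1 (0.32, SE 0.06), Nudc (0.36, SE 0.07) and Pafah1b2 (0.30, SE 0.06). On the low-background scale, 8 of the dynactin genes and all 6 regulators remained with medians of 0.05 and 0.05, and none passed the edgeR test, Capza2 coming nearest (0.12, SE 0.03, edgeR adjusted p = 0.0529). Capza2 did pass on the same genes without subtraction (0.14, edgeR adjusted p = 0.0099) and on genes under a 20% share with subtraction (0.15, edgeR adjusted p = 0.0027).

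Cargo adaptors join the dynein-dynactin complex to vesicles and set it moving. Of 17 tested, 4 rose, 3 fell and 10 were not called, with a median of 0.06. Bicd2 (0.29, SE 0.06) and the centrosomal adaptor gene Nin (0.27, SE 0.06) rose. Bicd1 fell from 14.9 ± 4.12 to 7.31 ± 1.15 CPM (-1.02, SE 0.17, edgeR adjusted p = 3.4e-06), but the background density predicted 104% of its reads. Of 9 genes whose products bind Dynll1 or control it, 5 rose and 0 fell, with a median of 0.27. Atmin, a transcription factor known to drive Dynll1, went from 52.7 ± 4.05 to 63.6 ± 3.88 CPM (0.27, SE 0.07, edgeR adjusted p = 0.0016) and was at 0.04 (SE 0.07, edgeR adjusted p = 0.83) on the low-background scale. The myosin gene Myo5a (0.34, SE 0.06), the kinase gene Nek9 (0.29, SE 0.06) and Bcl2l11, whose product Bim is held by LC8 (0.32, SE 0.06), rose on the TMM scale.

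Axonemal dyneins and the ciliary transport dynein are separate motors of the same family. Of 17 tested axonemal dynein genes, which drive beating cilia, 0 rose and 15 fell, where 31.3% of all tested genes were called lower, with a median of -0.97. Dnah3 went from 21.8 ± 5.29 to 8.93 ± 1.55 CPM (-1.28, SE 0.14, edgeR adjusted p = 1.7e-09), Dnah2 from 22.7 ± 5.52 to 12.6 ± 1.23 CPM (-0.84, SE 0.13) and Dnah11 from 20.4 ± 5.81 to 10.8 ± 1.21 CPM (-0.91, SE 0.14). The background density predicted a median of 39.4% of the reads of these 17 genes, and 0 of them had a share under 5%. The 31.3% was taken over genes of every background share and was not computed for genes with as much background as these. The part of background in the fall of the axonemal genes was not tested. Ciliated cell markers, 6 genes, had a summed level of 37.3 to 61.1 CPM in the control and 24.6 to 36.4 CPM in the knockdown-labelled libraries, with a median share of 33.7% among the 5 tested, and none was at 0. Of 5 subunits of the ciliary transport dynein 1 rose, Dync2li1, named after its value was seen, and 0 fell. Dync2li1 (0.71, SE 0.26, edgeR adjusted p = 0.018) was read little, at means of 3.11 CPM in control and 5.10 CPM in knockdown-labelled libraries. Its background share was 18.7%. Dync2h1 (-0.13, SE 0.10), Wdr34 (0.18, SE 0.16) and Tctex1d2 (0.11, SE 0.14) did not pass.

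Other subunits of the cytoplasmic motor were scarcely read. Dync1i1, the neuronal intermediate chain gene, had 10 to 33 reads per library with a background share of 40.2%, and it was the only one of 6 that could be tested (it fell by 0.89 on the log2 scale). Dynlrb2 had 2 to 12 reads per library. The copies Dynlt1a, Dynlt1b, Dynlt1c and Dynlt1f had 0 to 9 reads each, values that are uncertain because reads of near-identical copies can be dropped or split in counting. Kinesins are mostly plus-end motors, and tubulins form the track. Of 18 kinesin genes 11 rose and 2 fell (median 0.19). The fallen were Kif5a and Kif1a, named after their values were seen, with background shares of 23.9% and 21.5%. Among the risen were Kif5b, the conventional kinesin heavy chain gene (0.35, SE 0.06), Kif1c (0.30, SE 0.06) and Kif1b (0.28, SE 0.06). Of 16 tubulin and microtubule-binding genes 7 rose and 0 fell (median 0.18), among the risen Tubb5 (0.30, SE 0.06), Mapre1 (0.30, SE 0.06) and Clip1, which tracks growing microtubule ends and binds Dctn1 (0.20, SE 0.06). On the low-background scale 13 kinesin and 9 tubulin-list genes remained with medians of 0.03 and -0.05. The 1 gene of all 9 lists called there was Mapre2, which encodes the end-binding protein EB2, at -0.16 (SE 0.05, edgeR adjusted p = 0.0442), and it had been at 0.08 on the TMM scale.

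The start regions are described for the members and shown for Dynll1, the gene that had been picked. RefSeq start sites (GRCm38.p6) were matched for 8 members, all but Dynll2 and Dync1li2, and the 250 bases before each start were searched on both strands for CCAAT and for GGGCGG, the GC box. A GC box lay in at least 1 start region of 6 of the 8, where 32.7% of all 32851 start regions held one, and CCAAT in 2 of the 8, where 33.8% did. Genes with more than 1 start have more chances to hold a motif. Dynll1 held 2 CCAAT copies and 1 GC box, in capitals in its region at chr5:115300991-115301240, minus strand, printed 5′ to 3′.
Dynll1: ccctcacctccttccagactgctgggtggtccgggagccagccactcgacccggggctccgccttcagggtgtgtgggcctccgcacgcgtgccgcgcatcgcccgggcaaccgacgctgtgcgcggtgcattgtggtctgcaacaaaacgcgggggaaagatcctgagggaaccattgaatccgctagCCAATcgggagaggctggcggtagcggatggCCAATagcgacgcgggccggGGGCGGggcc
The other member with CCAAT was Dctn2, with 1 copy. These matches are descriptions of the letters and were not linked to any measured level.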

How the data were processed

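Total RNA libraries were made with a stranded kit for low input, per the labels' protocols. The authors deposited raw exon read counts, whole numbers in a separate file for every library. The submitters' processing notes name bcl2fastq and the build GRCm38 (mm10). Aligner, counter, strand setting and annotation were not given in the sources used here. Reads of overlapping genes on opposite strands may therefore not be separated. 92 spike-in rows, with 0 to 2 reads per library, were left out. Lanes were read from the deposited files' names. GENCODE M21 names, exon lengths and coordinates matched 55230 of 55471 genes, and the other 241 held 0.0107% of reads.

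Genes were filtered with filterByExpr, scaled with TMM and tested with edgeR 4.0.16 (R 4.3.3, robust quasi-likelihood fit, group only), adjusted over all tested genes by Benjamini-Hochberg. Background density came from 1135 olfactory receptor genes, and expected background reads were density times exon length. Alternatives were DESeq2 1.42.0, limma-voom (limma 3.58.1), other scalings and filters, lane, replicate number, background density, and each library left out. On simulated counts over 19263 genes the test found 32% of 50 genes changed 1.2-fold and 92% of 50 changed 1.5-fold. Of 19063 unchanged genes 10 were called. How often unchanged genes are called when background density differs between labels, as it did here, was not tested. Named genes were the members, 3222401L13Rik, Atmin, up to 3 genes per list with at least 5 CPM and the smallest p, list genes called on the low-background scale, and the 5 genes most like Dynll1. Genes named as marker examples or in counts of 5 or fewer were picked with their values in view. The members and lists were chosen with earlier results of these data known. Figures used Python 3.11.15 and matplotlib 3.10.9.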

Additional observations from a re-analysis of the deposited data

Results flagged for a closer look

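Dctn2 was at 118 CPM in knockdown-labelled replicate 1, while the other 4 libraries of that group lay between 138 and 142 CPM. It was singled out because its gap to the nearest library took 0.833 of the group's whole range, above the limit of 0.71 for 5 libraries. Of 20 sets of 5 libraries checked, 2 groups for each of the 10 genes, this was the 1 that passed the limit, and chance alone gives about 1 in 20.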

How the results depend on the processing

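With each library left out in turn, genes called higher ran from 4032 to 5015 and lower from 4928 to 6967, members called stayed at 8 and 0, list genes called ran from 36 to 45 higher and 18 to 21 lower, the background density ratio from 2.12 to 2.55 and 3222401L13Rik from -0.25 to -0.08. Dynll1 ran from -0.0044 without control replicate 4, where its sign turned, to 0.15 without knockdown-labelled replicate 4. Values not called on the TMM scale also moved by over 1.5 times. Dynll2 (0.090) ran from 0.056 to 0.14, Dync2h1 (-0.13) from -0.17 to -0.059, Wdr34 (0.18) from 0.11 to 0.27 and Tctex1d2 (0.11) from 0.058 to 0.20, with the value nearest 0 in each case without knockdown-labelled replicate 3, and Mapre2 (0.077) from 0.067 to 0.12, the highest without knockdown-labelled replicate 1. The replicate numbers share only a number. Same-numbered libraries deviated together at r = 0.0075, -0.20, 0.12, 0.42 and 0.12 for replicates 1 to 5, only replicate 4 matched its own number best, and with the replicate block 4405 genes were called higher and 5949 lower, with 36 of 36 members and named genes keeping their side of the threshold. DESeq2 and limma-voom changed no direction or call of these 36 either.

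Scaling and background changed the calls. With background density as a covariate 4 genes rose and 16 fell, members 0 and 1 (Dynll1, picked for this value), list genes 0 and 0. In lane 8 alone, with 2 libraries against 2, the counts were 67 and 153, members 1 higher, list genes 0 and 3. With library totals only 759 genes rose, 1 member rose, and list genes numbered 9 and 35. With upper-quartile scaling 1685 genes rose, with 6 members and 19 list genes. With the filter of 5 CPM in 5 libraries, 2057 rose and 2239 fell, with 7 members and 21 list genes higher. Lane 7 alone called 7 members higher. On genes under a 5% share scaled alone, which leaves 4728 genes, 103 rose and 89 fell, members 0 higher, list genes 2 and 6, and with subtraction 34 and 48, members 0, list genes 0 and 1. Under a 20% share with subtraction 272 rose and 337 fell, members 0, list genes 3 and 2. The cause of these changes was not tested, and some of the settings also had fewer genes or libraries.

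Signs turned as follows, all in log2. With the covariate Dynll1 was at -0.53, Dync2h1 at 0.054, Wdr34 at -0.097, Tctex1d2 at -0.33, Clip1 at -0.0030 and Mapre2 at -0.045. With library totals Dynll1 was at -0.15, Dynll2 at -0.12, Dctn2 at -0.039, Wdr34 at -0.028, Tctex1d2 at -0.093, Clip1 at -0.0025 and Mapre2 at -0.13. Under a 20% share with subtraction Dynll1 was at -0.16, Dynll2 at -0.13, Dync1h1 at -0.010, Dctn2 at -0.058, Tctex1d2 at -0.031, Clip1 at -0.020 and Mapre2 at -0.13. Under a 5% share with subtraction Dynll1 was at -0.19, Dynll2 at -0.16, Dync1h1 at -0.043, Dctn1 at -0.0070, Dctn2 at -0.091, Clip1 at -0.053 and Mapre2 at -0.16. Under a 5% share without subtraction Dynll1 was at -0.19, Dynll2 at -0.16, Dync1h1 at -0.019, Dctn2 at -0.079, Clip1 at -0.043 and Mapre2 at -0.17. With the stricter filter Dynll1 was at -0.060, Dynll2 at -0.029, Tctex1d2 at -0.0057 and Mapre2 at -0.042. With upper-quartile scaling Dynll1 was at -0.089, Dynll2 at -0.057, Tctex1d2 at -0.034 and Mapre2 at -0.069. In lane 8 alone Dync2h1 was at 0.052 and Tctex1d2 at -0.23. With no filter Dync2h1 was at 0.0029.

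The ratio of the highest to the lowest member level was 4.91 and moved to 4.43 with the longest transcript as length. The density ratio was 2.65 in lane 7 (exact p = 0.10) and 1.93 in lane 8 (exact p = 0.33), where 3 against 3 and 2 against 2 libraries allow no smaller p. The fits of Dynll1 with density and 1 library left out were added after the data were seen.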
